A study of Mus musculus with 25 samples.

Results

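Genes of iron and heme handling, 9 in number, were followed through sorted macrophages of mouse glioblastoma, an aggressive brain tumour. They were chosen by name, with earlier results of these data known and no measured value in the rule, and all 9 were found among the 30749 genes of the deposited table. By role they comprise the uptake genes Tfrc, Slc11a1 and Slc11a2, the ferritin chains Fth1 and Ftl1, the iron exporter Slc40a1, and the heme genes Hmox1, Blvrb and Hebp1. All 9 also passed the filter on low values (at least 10 normalised counts in at least 3 libraries), as did 17216 genes of the table.

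RNA was sequenced from monocyte-derived macrophages (MDM, cells that enter a tumour from the blood) and from microglia (the resident macrophages of the brain), both sorted from tumours. The tumours belonged to 1 of 2 lineage-based models, labelled type 1 and type 2, and had either arisen spontaneously in the animal or been transplanted. The libraries used were 3 of microglia from each of the 4 tumour classes, 2 of type 1 spontaneous MDM, 4 of type 1 transplanted MDM, 1 of type 2 spontaneous MDM and 2 of type 2 transplanted MDM. Every group was tumour tissue, and 4 labelled samples from normal brain were not analysed here. The labels give no strain, driver allele, sex, age, sort gate, host of the transplants or pooling of animals for any group. Nor do they say whether the libraries of 1 group are from different animals, and each p-value therefore reflects only library-to-library spread, some of which may be technical. Libraries are named below by class, cell type and the number in their label.

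Cells take up iron bound to transferrin through the transferrin receptor (Tfrc), move it across membranes with the metal transporters DMT1 (Slc11a2) and NRAMP1 (Slc11a1), store it in ferritin and release it through ferroportin (Slc40a1). Heme, the iron-holding ring of haemoglobin, is opened by heme oxygenase 1 (Hmox1), which frees the iron and yields biliverdin, a pigment that biliverdin reductases such as Blvrb reduce. Tissue macrophages are known for recycling iron from old red blood cells, and microglia are among the iron-storing cells of the brain. Iron-regulatory proteins bind a hairpin in some of these transcripts, the iron-responsive element, and block translation when it lies in the 5′ UTR or protect the transcript when it lies in the 3′ UTR.

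That hairpin is the regulatory sequence these genes are known for, and 4 of the 9 genes had a UTR match to the strict form searched for here. Transcripts of GENCODE M21 (GRCm38, the assembly also called mm10) were searched on the transcribed strand for a C, any 5 bases, CAGTGN and a second run of 5 bases pairing with the first, G with T included, with at least 4 of 5 pairs in the stem below. A UTR match was found in 17 of 21901 protein-coding genes, or 0.08%. In the sites below, written 5′ to 3′ as DNA, capitals mark the bulged C and the first 5 bases of the loop.
Slc40a1, 5′ UTR: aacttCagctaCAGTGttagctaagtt
Fth1, 5′ UTR: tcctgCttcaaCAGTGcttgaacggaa
Ftl1, 5′ UTR: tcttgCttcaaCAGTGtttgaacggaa
Tfrc, 3′ UTR, site 1: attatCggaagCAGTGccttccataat
Tfrc, 3′ UTR, site 2: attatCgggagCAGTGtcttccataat
Tfrc, 3′ UTR, site 3: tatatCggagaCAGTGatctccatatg
Tfrc, 3′ UTR, site 4: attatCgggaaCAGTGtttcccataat
The Slc40a1 site lies at chr1:45925466-45925492 on the minus strand, the Fth1 site at chr19:9982733-9982759 on the plus strand and the Ftl1 site at chr7:45459780-45459806 on the minus strand. The 4 Tfrc sites lie on the plus strand at chr16:32631220-32631246, chr16:32631599-32631625, chr16:32631664-32631690 and chr16:32631711-32631737. No match of these letters was found in the UTRs of Hmox1, Slc11a1, Slc11a2, Hebp1 and Blvrb, which says only that these letters were not there. A hairpin with a further bulge in the upper stem or another loop is missed by this search, so these 5 genes may still hold one. Binding to the sites and translation were not measured, so the values below are transcript levels alone.

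Recovered totals were 26530069 to 50365607 reads per library, and levels are given as normalised counts, reads divided by a size factor of 0.62 to 1.55. The sort was visible in its markers, since all 10 microglia markers were lower and all 10 markers of monocyte-derived macrophages were higher in MDM. Among MDM, 5 libraries stood apart by transcripts of other blood cells: type 1 transplanted MDM 1 to 4 and type 2 transplanted MDM 1 held 160660 to 264209 normalised counts summed over T and NK cell markers. The other 4 MDM libraries held 6970 to 33787 and the 12 microglia libraries 97 to 4192. This sum mixes T and NK cells. Cd3e, a T cell marker, was at 11984 to 27570 in type 1 transplanted MDM but at 524 in type 2 transplanted MDM 1. Type 2 transplanted MDM 3 held 790 of it and type 1 spontaneous MDM 1785 and 1510. B cell markers also set the 5 libraries apart, at 17547 to 42840 in type 1 transplanted MDM and 23499 in type 2 transplanted MDM 1. The other 4 held 618 to 3554. The same 5 libraries held 13511 to 33782 counts summed over microglia markers, the other 4 MDM libraries 96026 to 220031 and the microglia 591929 to 1279884. In sorted bulk RNA a smaller share of cells of one type and less RNA of a gene per cell cannot be told apart. Fits below without these 5 libraries hold no type 1 transplanted MDM, so they average MDM against microglia over the other tumour classes only. The MDM libraries they keep are those with the most microglia markers. Markers of red blood cells, which carry most of the body's heme iron, summed to 42 to 4174 in MDM and 29 to 6804 in microglia. None of the 6 red cell markers tested was called between them.

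Per kilobase of the principal transcript, the ferritin chains had the highest mean levels of the 9 genes and Tfrc the lowest, in microglia and in MDM. In microglia (n = 12) the mean normalised count per kilobase was 196566.5 ± 88529.8 (SD) for Ftl1 and 163379 ± 90403 for Fth1. Slc11a1 followed at 13809 ± 3231, then Hmox1 at 12176 ± 14815 and Hebp1 at 5770 ± 6447. Slc40a1 (2454 ± 1306), Blvrb (1900 ± 804), Slc11a2 (859 ± 226) and Tfrc (72.3 ± 47.8) closed the order. Neighbours in it were often not separated: Ftl1 lay above Fth1 in 9 of 12 libraries, Slc11a1 above Hmox1 in 9, Hmox1 above Hebp1 in 9, Hebp1 above Slc40a1 in 6 and Slc40a1 above Blvrb in 7. Fth1 lay above Slc11a1, and Slc11a2 above Tfrc, in all 12. In MDM (n = 9) the order began in the same way, with Ftl1 at 143370.2 ± 97139, and ended with Slc40a1 at 309 ± 490 and Tfrc at 60.8 ± 21.5. These MDM means pool unlike libraries: Slc40a1 lay above Tfrc in 6 of 9, and Hebp1, with a mean of 857 ± 1223, lay below Tfrc in 5 of 9, the libraries rich in T and NK cell transcripts.

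**Figure D1:**
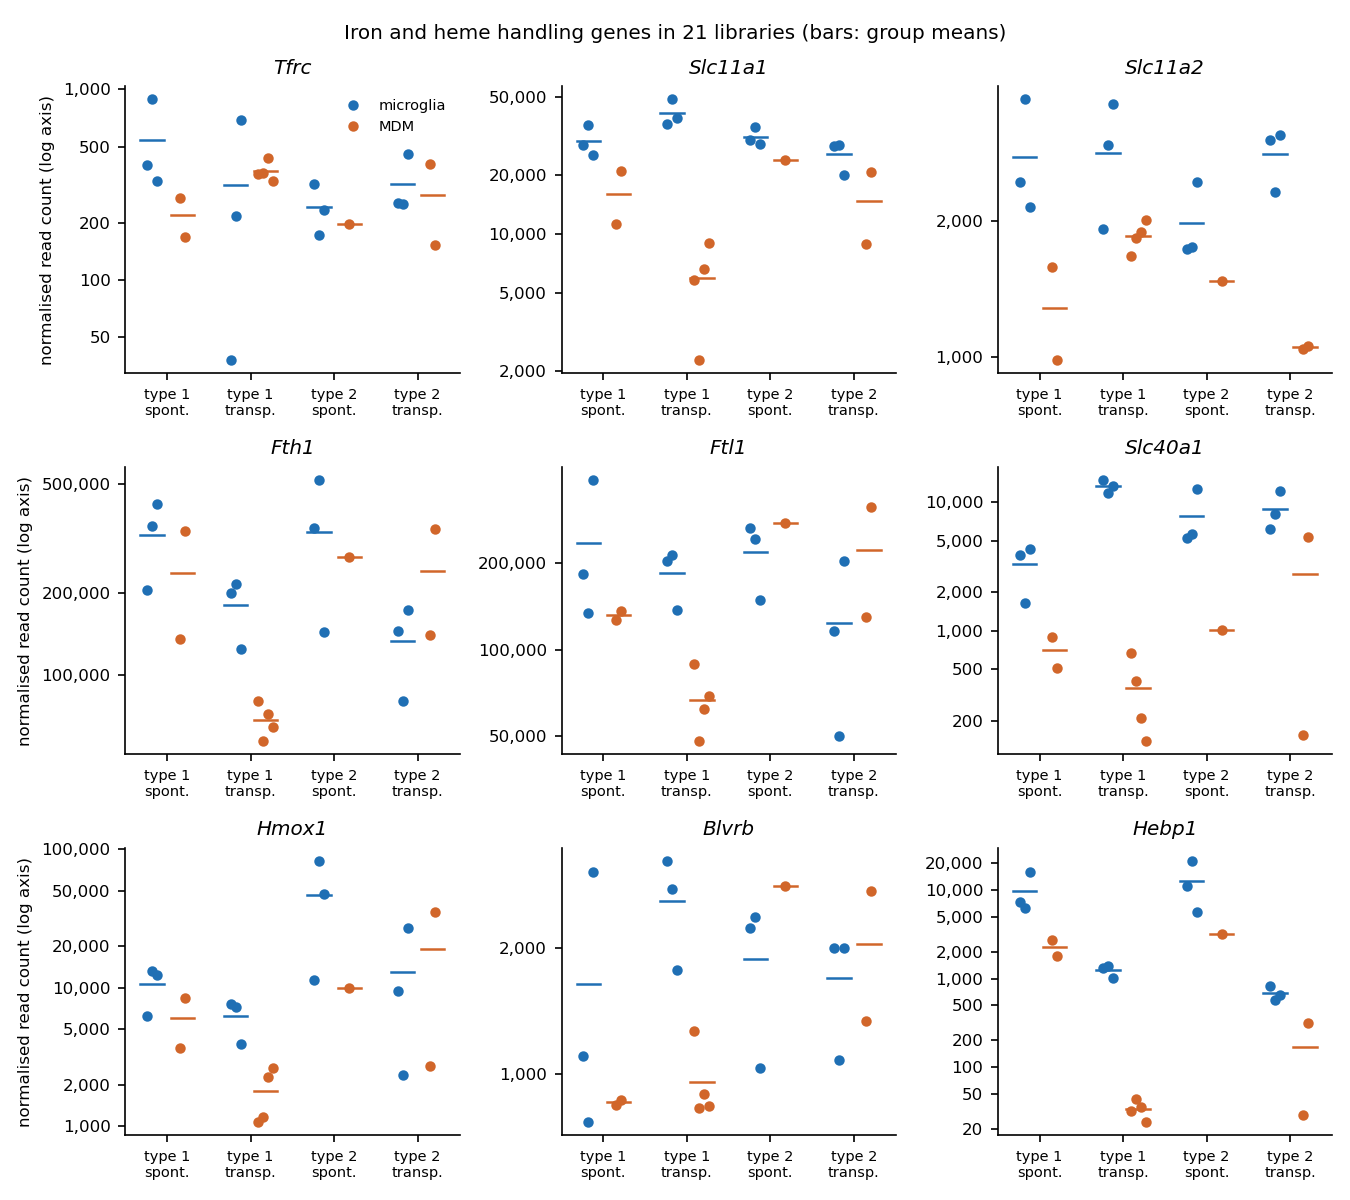
Normalised read count (log axis) of each of the 9 genes in the 21 libraries, by tumour class; points are libraries, blue for microglia and orange for MDM, and bars are group means. Hebp1 is the gene whose 6 transplanted microglia libraries (580 to 1376) all sit below the 6 spontaneous ones (5679 to 21211), and Slc40a1 is lower in MDM than in microglia of the same class in every class.

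Comparing MDM with microglia asks how the cells from the blood differ from the resident ones. Of the 9 genes 4 were lower in MDM and none was higher: the exporter Slc40a1, Hebp1 and both metal transporters. Over all genes tested 42.7% were called in this comparison and 19.8% were lower. The share of the 9 genes that was called is thus close to the background. The fit averaged the 4 tumour classes with equal weight. The median log2 fold change of the 9 genes was -0.87, against 0.07 over all genes tested. None of the 9 had groups that did not overlap, which 6.85% of genes had.

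The exporter differed most. Slc40a1 (chromosome 1, 45908068 to 45926523, minus strand), which encodes ferroportin, stood at 897 and 515 normalised counts in type 1 spontaneous MDM 1 and 2. It was at 676, 406, 211 and 139 in type 1 transplanted MDM 1 to 4, at 1012 in the type 2 spontaneous MDM library, and at 156 and 5365 in type 2 transplanted MDM 1 and 3. In microglia the lowest library was at 1647, the median at 7098 and the highest at 14735. So 8 of 9 MDM libraries lay below every microglia library, and type 2 transplanted MDM 3 lay among them. The log2 fold change was -3.40 ± 0.49 (SE of the fit), a fitted fold of 10.6, adjusted p = 1.9e-05 by limma-trend with Benjamini-Hochberg adjustment over all tested genes, as for every adjusted p below. Without the 5 MDM libraries rich in T and NK cell transcripts it was -1.87 ± 0.33, adjusted p = 0.0013.

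Hebp1 (chromosome 6, 135137522 to 135198022, minus strand), a heme-binding protein that is also the source of a peptide attracting leukocytes, was lower in MDM at -2.95 ± 0.36, adjusted p = 2.6e-06. Its counts were 2717 and 1789 in type 1 spontaneous MDM 1 and 2, 3177 in type 2 spontaneous MDM, and 28.6 and 313 in type 2 transplanted MDM 1 and 3. Type 1 transplanted MDM 1 to 4 held 32.0, 43.7, 35.5 and 24.0, and microglia ranged from 580 to 21211 with a median of 3528. Groups overlapped only across tumour classes: within each class every MDM library lay below every microglia library of that class, as did 15.8% of genes in type 1 spontaneous, 20.6% in type 1 transplanted, 28.1% in type 2 spontaneous and 23.2% in type 2 transplanted tumours. Without the 5 T and NK cell rich libraries the value was -1.64 ± 0.34, adjusted p = 0.0039.

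The metal transporters differed by less. Slc11a1 (chromosome 1, 74375195 to 74386062, plus strand), which encodes the phagosomal transporter NRAMP1, was at 2283 (lowest), 9009 (median) and 23744 (highest) in MDM and at 20011, 29352 and 48723 in microglia. The 5 lowest MDM libraries were those rich in T and NK cell transcripts, and the groups overlapped through the highest MDM libraries. The log2 fold change was -1.29 ± 0.24, adjusted p = 0.00021. This call was lost without the T and NK cell rich libraries, where the value was -0.54 ± 0.21. That fit also leaves out type 1 transplanted tumours and has fewer MDM libraries, and which of these mattered was not tested.

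Slc11a2 (chromosome 15, 100387898 to 100425072, minus strand), which encodes DMT1 and moves iron across endosomal and plasma membranes, was at 983 (lowest), 1580 (median) and 2008 (highest) in MDM. In microglia it was at 1737, 2442 and 3728. The groups overlapped in a narrow band, and the log2 fold change was -0.87 ± 0.16, adjusted p = 2e-04. It was -0.97 ± 0.23, adjusted p = 0.0086, without the libraries rich in T and NK cell transcripts.

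The other 5 genes were not called between the cell types. Hmox1 (chromosome 8, 75093621 to 75100589, plus strand) was at 1075, 2710 and 35259 (lowest, median, highest) in MDM and at 2327, 10401 and 81522 in microglia. Its log2 fold change was -1.08 ± 0.51, adjusted p = 0.1. Leaving out type 2 spontaneous microglia 1, type 2 transplanted microglia 2 or type 2 transplanted MDM 3 brought it under the threshold (adjusted p = 0.043, 0.034 and 0.013), and without the T and NK cell rich libraries it was -0.20 ± 0.64. Fth1 (chromosome 19, 9980598 to 9985098, plus strand), the ferritin heavy chain that oxidises iron, gave -0.31 ± 0.30, adjusted p = 0.43. Ftl1 (chromosome 7, 45457944 to 45459884, minus strand), the light chain that helps the iron core form, gave -0.21 ± 0.29, adjusted p = 0.59. Tfrc (chromosome 16, 32608920 to 32632794, plus strand) gave -0.18 ± 0.41, adjusted p = 0.76. Blvrb (chromosome 7, 27447978 to 27466144, plus strand) gave -0.30 ± 0.26, adjusted p = 0.38. Without the T and NK cell rich libraries Fth1, Ftl1 and Blvrb stood at 0.26, 0.42 and 0.25 and Tfrc at -0.82, none of them called.

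**Figure D2:**
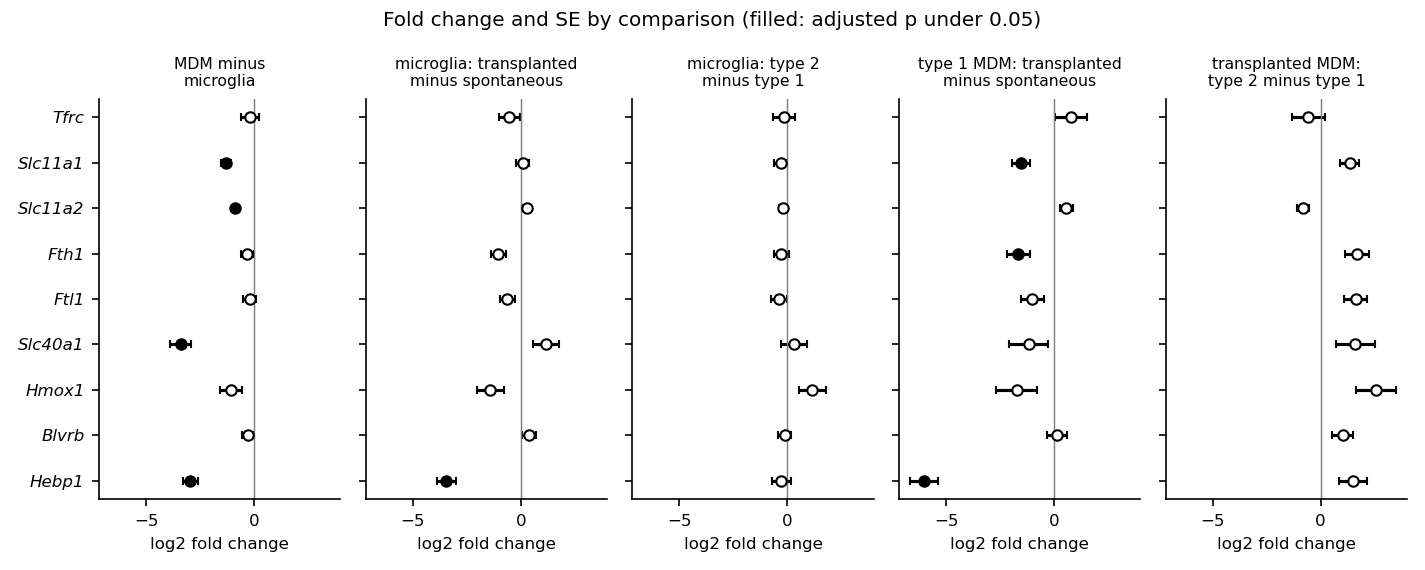
Log2 fold change (x axis) of each of the 9 genes (y axis) in 5 comparisons; points are fitted values, bars are ± SE, and filled points had an adjusted p under 0.05. Slc40a1 at -3.40 and Hebp1 at -2.95 lead the left panel, Hebp1 alone is filled for model in microglia, and no point is filled for tumour type.

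The difference between the cell types was not of one size in the 4 tumour classes. In type 1 transplanted tumours 6 of the 9 genes were lower in MDM and none was higher, where 34.1% of all genes were called and 15.9% were lower. Slc40a1 differed there by -5.46 ± 0.79 (adjusted p = 3.2e-05), Hebp1 by -5.17 ± 0.58 (2.2e-06) and Slc11a1 by -2.95 ± 0.38 (9.9e-06). Ftl1 (-1.47 ± 0.47, adjusted p = 0.021), Blvrb (-1.41 ± 0.42, adjusted p = 0.013) and Fth1 (-1.37 ± 0.48, adjusted p = 0.034) were lower as well. All 4 MDM libraries of this class are among the T and NK cell rich ones, so the class and that RNA cannot be told apart. The calls of the last 3 genes also turned on the scaling: under quantile normalization Fth1 stood at 0.16 and Ftl1 at 0.04, and without type 1 transplanted microglia 1 none of the 3 was called (adjusted p = 0.1 for Fth1, 0.069 for Ftl1 and 0.065 for Blvrb).

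In type 2 transplanted tumours 3 of the 9 genes were lower in MDM, against 18.0% of all genes called and 8.45% lower. They were Slc40a1 (-3.20 ± 0.95, adjusted p = 0.026), Hebp1 (-2.81 ± 0.69, adjusted p = 0.009) and Slc11a2 (-1.41 ± 0.31, adjusted p = 0.0043). The MDM libraries of this class were unlike: MDM 1 held 264209 counts of T and NK cell markers and 33782 of microglia markers, and MDM 3 held 27642 and 220031. Without MDM 1, Slc40a1 was at -0.65 (adjusted p = 0.66) and Hebp1 at -1.11 (adjusted p = 0.27). Without MDM 3 they were at -5.75 and -4.52 (adjusted p = 5.1e-05 and 7.8e-05). In type 1 spontaneous tumours 1 gene was lower, Slc11a2 at -1.11 ± 0.31 (adjusted p = 0.023), against 13.4% of genes called and 4.86% lower. Slc40a1 there was at -2.15 ± 0.95 (adjusted p = 0.15) and Hebp1 at -2.03 ± 0.69 (adjusted p = 0.058). Type 2 spontaneous tumours gave a single MDM library and no call among the 9 genes, where 10.7% of genes were called, with Slc40a1 at -2.82 ± 1.199 and Hebp1 at -1.79 ± 0.87.

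**Figure D3:**
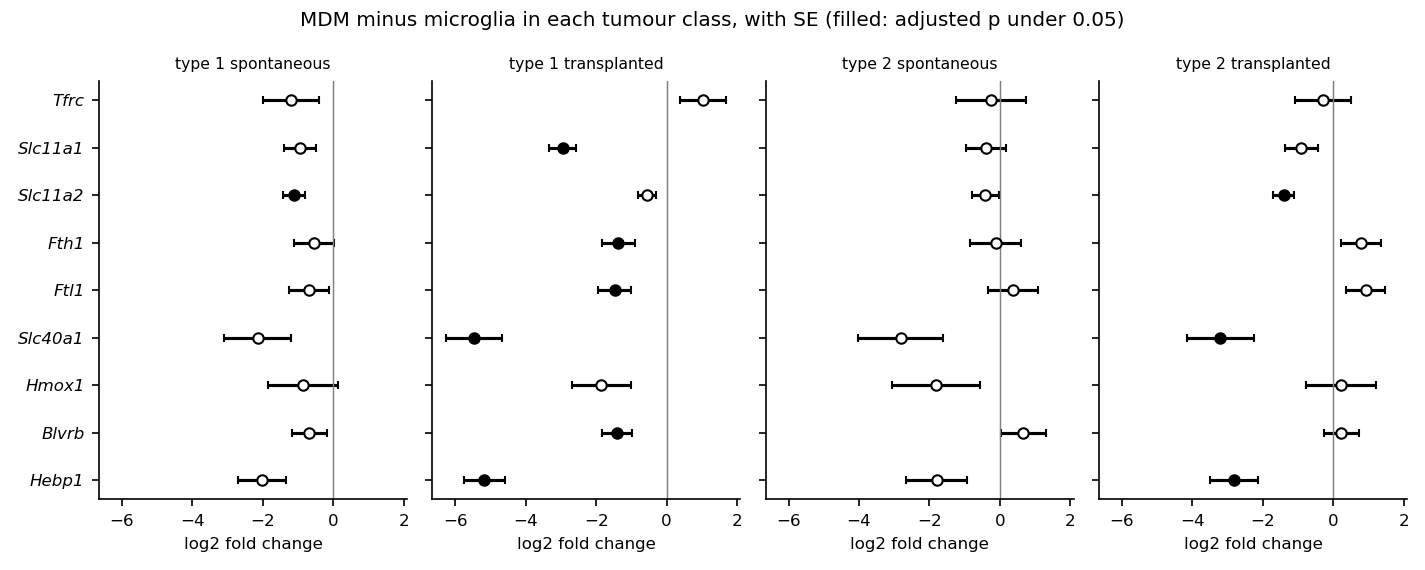
Log2 fold change of MDM against microglia (x axis) for the 9 genes (y axis) in each tumour class; points are fitted values, bars are ± SE, and filled points had an adjusted p under 0.05. Slc40a1 lies between -5.46 and -2.15 and Hebp1 between -5.17 and -1.79 over the 4 classes, while Fth1 and Ftl1 lie on either side of 0.

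These class differences were not called as differences. In the interaction of cell type with model (transplanted minus spontaneous) none of the 9 genes passed the threshold, against 2.24% of all genes. An unadjusted p under 0.05 was found in 2 of the 9, and in 2981 of the 17216 genes tested. The 2 were Hebp1 at -2.08 ± 0.71 (adjusted p = 0.14) and Slc11a1 at -1.26 ± 0.47 (adjusted p = 0.18). Without type 2 transplanted MDM 3, Hebp1 (-2.93, adjusted p = 0.0034) and Slc40a1 (-3.12, adjusted p = 0.0079) were called. In the interaction with tumour type none was called either, against 0.0871% of genes. There 4 of the 9 had an unadjusted p under 0.05, as had 2231 of the 17216 genes tested. Those 4 were Ftl1 at 1.73 ± 0.58 (adjusted p = 0.22), Blvrb at 1.498 ± 0.52 (0.24), Slc11a1 at 1.30 ± 0.47 (0.26) and Fth1 at 1.29 ± 0.59 (0.37).

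The levels of microglial markers in MDM were set beside these genes, library by library. As a percentage of the mean of the microglia of the same class, the 10 summed microglia markers stood at 1.30 to 24.1 in the 9 MDM libraries, with a median of 3.34. Slc40a1 stood at 1.05 to 61.3 (median 5.09) and Hebp1 at 1.94 to 45.7 (median 4.18). Both genes had medians near that of the markers. In percentage points both were furthest above the markers in type 2 transplanted MDM 3, with Slc40a1 at 61.3%, Hebp1 at 45.7% and the markers at 21.8%. As a ratio to the markers Hebp1 did not stand out there: in type 1 transplanted MDM 2 it was at 3.53% beside 1.62%. The ferritin chains had a median of 44.6% for Fth1 and 53.7% for Ftl1, and Slc11a2 ranged from 35.5% to 74.4%. Tfrc ranged from 31.1% to 138% with a median of 104%. How much of any value comes from microglia within the MDM sort was not tested.

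**Figure D4:**
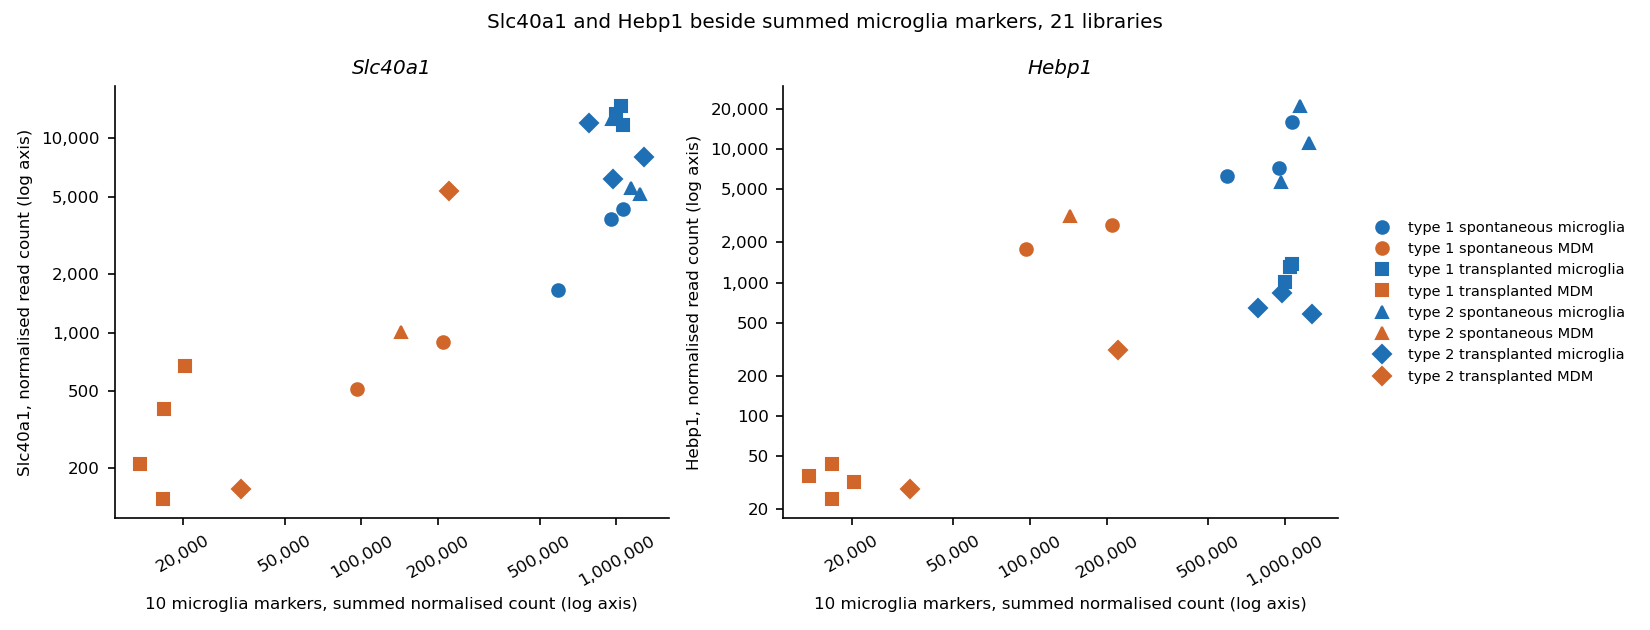
Normalised count of Slc40a1 (left) and Hebp1 (right) on the y axis against the sum of 10 microglia markers on the x axis (both log axes) in 21 libraries; colour gives the cell type and shape the tumour class. The 5 MDM libraries at the lower left hold 13511 to 33782 marker counts, and transplanted microglia lie below spontaneous microglia for Hebp1 at like marker sums.

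Within microglia, the comparison of transplanted with spontaneous tumours asks whether the way a tumour arose goes with the state of the resident cells. Hebp1 alone of the 9 genes was called, and it was lower; 1.84% of all genes were called and 0.836% were lower. Its counts were 1319, 1376 and 1012 in type 1 transplanted microglia 1, 2 and 4, and 831, 580 and 644 in type 2 transplanted microglia 1 to 3. In spontaneous tumours they were 7261, 6281 and 16018 in type 1 microglia 1 to 3 and 11050, 21211 and 5679 in type 2 microglia 1 to 3. All 6 transplanted libraries lay below all 6 spontaneous ones, which held for 0.517% of genes in that direction. The log2 fold change was -3.45 ± 0.44, a fitted fold of 10.9, adjusted p = 0.00037, and it stayed under the threshold in all 21 fits that left out a library and in the 11 other alternatives.

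The microglia markers did not move with this change: 0 of 10 were called, and their sums were 780063 to 1279884 in transplanted and 591929 to 1241018 in spontaneous microglia. Of 11 T and NK cell markers tested 6 were higher in transplanted microglia, with sums of 214 to 4192 against 97 to 298. Of 10 markers of monocyte-derived macrophages 2 were lower, as Hebp1 was, with sums of 6028 to 14994 in transplanted and 10358 to 44426 in spontaneous microglia. The part of these cells in the Hebp1 result was not tested. Without the microglia libraries rich in transcripts of other immune cells (type 1 spontaneous 2 and type 1 transplanted 1 and 2), Hebp1 was at -3.72 ± 0.60, adjusted p = 0.009. Hebp1 shares 46 exon bases with Fam234b on the opposite strand, and the strand of the reads is not stated, so reads there cannot be told apart. Fam234b itself was at -0.18 ± 0.21 (adjusted p = 0.69). Among the 15 tested genes within 500 kb on either side of Hebp1, Fam234b included, 1 was called. It was Emp1, a membrane protein, at -3.73 ± 0.87 (adjusted p = 0.035).

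The other 8 genes were not called between the models in microglia. Fth1 came closest, at 204676, 353344 and 424435 in type 1 spontaneous and 345328, 519076 and 143528 in type 2 spontaneous microglia 1 to 3. It was at 200192, 215378 and 124523 in type 1 transplanted and 145509, 80371 and 172702 in type 2 transplanted microglia. The groups overlapped through type 2 spontaneous microglia 3 and type 1 spontaneous microglia 1, and the log2 fold change was -1.03 ± 0.36, adjusted p = 0.14. Without that library it was -1.29 ± 0.35, adjusted p = 0.032, and with array weights -0.89 ± 0.29, adjusted p = 0.048. Hmox1 was at -1.41 ± 0.63 (adjusted p = 0.23), Ftl1 at -0.61 ± 0.36 (0.35) and Slc40a1 at 1.19 ± 0.60 (0.28), so the exporter and the ferritin chains had opposite signs without passing the test. Tfrc (-0.53 ± 0.50), Blvrb (0.38 ± 0.32), Slc11a2 (0.27 ± 0.19) and Slc11a1 (0.09 ± 0.29) had adjusted p from 0.46 to 0.91. The sign of Tfrc rested on type 1 transplanted microglia 1, which held 38.1 normalised counts where the other 11 microglia libraries held 172 to 888; without it Tfrc was at 0.03.

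Type 2 and type 1 microglia did not differ in any of the 9 genes by this test, against 0.47% of all genes called. None had an unadjusted p under 0.05, which 1530 of the 17216 genes tested had. Hmox1 spread widely among type 2 microglia: 11306, 81522 and 47411 in type 2 spontaneous microglia 1 to 3 and 9497, 2327 and 26800 in type 2 transplanted microglia 1 to 3. In type 1 tumours its counts were 6197, 13120 and 12362 in spontaneous microglia and 7563, 7226 and 3920 in transplanted microglia. Type 2 microglia held both the highest and the lowest libraries, 35.0-fold apart, against 3.35-fold in type 1, and the log2 fold change was 1.15 ± 0.63, adjusted p = 0.63. The remaining 8 genes lay between -0.39 (Ftl1) and 0.30 (Slc40a1). The interaction of type with model in microglia called none of the 9 genes and 0.0116% of all genes, with Slc40a1 at -1.90 ± 1.199 and Tfrc at 1.83 ± 1.01, each with an adjusted p of at least 0.85.

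In type 1 MDM, 3 of the 9 genes were lower in transplanted than in spontaneous tumours and none was higher, against 13.7% of all genes called and 7.96% lower. Hebp1 fell from 2717 and 1789 to 32.0, 43.7, 35.5 and 24.0, a log2 fold change of -6.02 ± 0.65 (adjusted p = 3.4e-05). Slc11a1 fell from 11252 and 20845 to 5821, 2283, 6665 and 9009, by -1.53 ± 0.43 (adjusted p = 0.025). Fth1 fell from 135871 and 337558 to 80329, 57328, 71835 and 64542, by -1.66 ± 0.54 (adjusted p = 0.0498). In each of the 3 genes every transplanted library lay below both spontaneous ones, as 19.3% of genes did. The 4 transplanted libraries held 160660 to 191579 counts of T and NK cell markers against 6970 and 17337, and 13511 to 20321 of microglia markers against 209533 and 96026, so model and this RNA cannot be told apart here. Of 9 markers of border-associated macrophages 5 were lower as well, and their part was not tested. Only Hebp1 kept its call in all alternatives: without type 1 spontaneous MDM 2 or without type 1 transplanted MDM 2, and with quantile normalization, array weights or only the compared groups, it was the single gene called. With a library left out, most often one outside these 2 groups, Slc11a1 was called in 19 of 21 fits and Fth1 in only 7. Of the 10 other alternatives, 6 called Slc11a1 and 3 called Fth1. Scaling to equal library totals, which shifted the all-gene median by 0.51, left Fth1 at -1.12 and Slc11a1 at -0.99, neither of them called. It brought Slc11a2 to 1.11 (adjusted p = 0.047), called higher.

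Hmox1 (-1.74 ± 0.94), Ftl1 (-1.01 ± 0.53) and Slc40a1 (-1.18 ± 0.90) were not called in type 1 MDM, with adjusted p of 0.25, 0.25 and 0.44. Tfrc (0.80 ± 0.75), Slc11a2 (0.57 ± 0.29) and Blvrb (0.14 ± 0.47) were not called either. Emp1, the neighbour of Hebp1 named above, was lower here too, at -4.51 ± 1.31 (adjusted p = 0.028), the only 1 of 15 neighbours called.

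Among transplanted MDM, none of the 9 genes was called between type 2 and type 1, against 5.91% of all genes. An unadjusted p under 0.05 was found in 7 of the 9, and in 3620 of the 17216 genes tested. Of the 9 genes 5 had groups that did not overlap. Groups of 2 and 4 libraries did not overlap in 33.6% of all genes. Hmox1 stood at 2710 and 35259 in type 2 against 1075, 1173, 2280 and 2652 in type 1 (2.56 ± 0.94, adjusted p = 0.12). Fth1 stood at 140192 and 343162 against 57328 to 80329 (1.69 ± 0.54, adjusted p = 0.073), and Ftl1 at 129297 and 312533 against 48182 to 88845 (1.62 ± 0.53, adjusted p = 0.079). Blvrb (1.02 ± 0.47, adjusted p = 0.22) and Slc11a2 (-0.81 ± 0.29, adjusted p = 0.11) were the others without overlap. Without MDM 1, which leaves 1 type 2 library assumed to vary like the other groups, 6 genes were called, with Hmox1 at 4.41 and Slc40a1 at 4.16 (adjusted p = 0.01 and 0.0012). Without MDM 3 none was called and Slc40a1 was at -0.94.

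The ferritin chains moved together across libraries. The ratio of Ftl1 to Fth1 in normalised counts was 0.38 to 1.18 with a median of 0.91, and per kilobase it was 0.59 to 1.82 with a median of 1.41. Pearson's r between them on the log2 scale was 0.87 over 21 libraries and 0.71 after group means were taken out, a description only, since both genes share each library's depth and cell mix. In 3 libraries the heavy chain led by most: type 1 spontaneous microglia 2 (a ratio of 0.38), type 1 spontaneous MDM 2 (0.41) and type 2 spontaneous microglia 2 (0.47). All 3 come from spontaneous tumours, and the first 2 carry the same class and number. Together the chains took 0.372% to 1.83% of the reads of a library. The Ftl1 pseudogene Ftl1-ps2 was listed at 20.0 to 419 normalised counts, and how reads shared between near-identical copies were counted is not given in the sources used here, so the level of Ftl1 is uncertain to that extent.

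**Figure D5:**
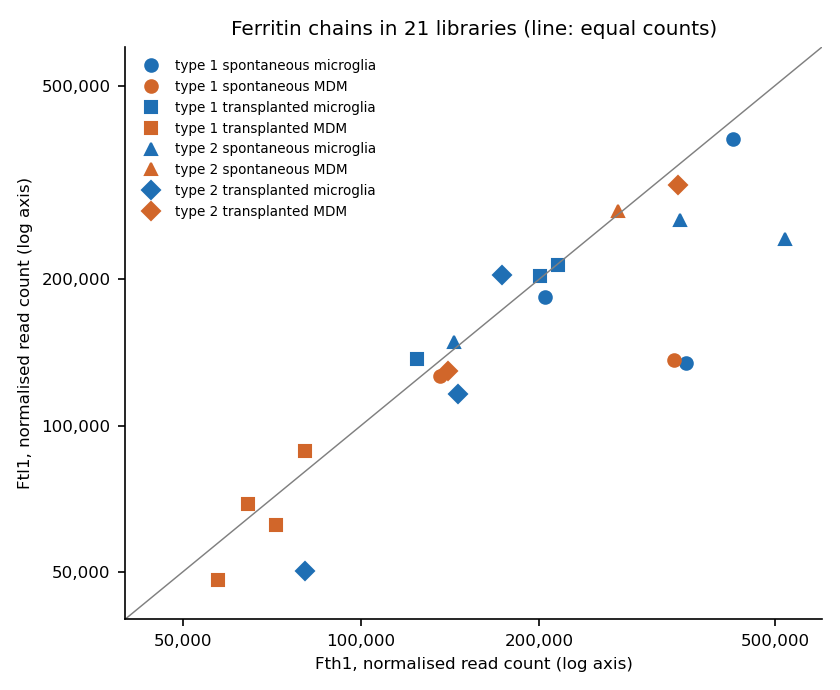
Normalised count of Ftl1 (y axis) against Fth1 (x axis), both log axes, in 21 libraries; colour gives the cell type, shape the tumour class, and the line marks equal counts. Most libraries lie near the line, and 3 libraries of spontaneous tumours lie well below it, at ratios of 0.38, 0.41 and 0.47.

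Each gene was also set beside the genes whose log2 levels ran most like it over the 21 libraries, as a description. Slc40a1 ran with P2ry12, a purine receptor of resting microglia (r = 0.955), and Gpr34, another microglial receptor (0.953). Hebp1 ran with Slc7a7, an amino acid transporter subunit (0.942), Tcim (0.937) and Lrpap1 (0.929), and Slc11a1 with Tnfrsf21 (0.941) and with Trf, the gene of transferrin (0.940). Hmox1 ran with Srxn1, sulfiredoxin, a repair enzyme of oxidised peroxiredoxins (0.806, and 0.860 after group means were taken out). Fth1 ran with Cstb, a cysteine protease inhibitor (0.937), and Ftl1 with the microRNA genes Mir692-2 (0.952) and Mir692-3 (0.941). The exons of Ftl1 share 109 bases with a microRNA gene on the same strand that is not in the deposited table. Whether reads of Ftl1 were counted in Mir692-2 and Mir692-3 was not tested. The gene most like Slc11a2 was Kremen1 (0.886), that most like Blvrb was Rit1 (0.843), and that most like Tfrc was Snhg17 (0.808). Among the 9 genes themselves, Ftl1 and Blvrb had the highest r after group means were taken out (0.886), and Tfrc ran with Slc11a2 (0.732) but against Blvrb (-0.467).

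The wider iron pathway, 27 listed genes of which 20 were tested, had 2 higher and 5 lower in MDM than in microglia. Over all genes tested 23.0% were higher and 19.8% lower in this comparison, 42.7% in all, which is the background for this and the next 3 lists. The 4 with the smallest p were all lower: Slc22a17, a receptor for siderophore-carrying lipocalin (-3.53 ± 0.28, adjusted p = 3e-08), Slc39a8, a metal transporter (-3.42 ± 0.37, adjusted p = 6.8e-07), Trf (-1.55 ± 0.21, adjusted p = 7e-06) and Mcoln1, a lysosomal iron channel (-0.71 ± 0.12, adjusted p = 6.9e-05). In transplanted against spontaneous microglia 2 of the 20 were called, both higher, against 1.84% of all genes. Cp, ceruloplasmin, the ferroxidase that works beside ferroportin, was at 2968 against 316 mean normalised counts (2.69 ± 0.58, adjusted p = 0.024). Ncoa4, the receptor that delivers ferritin to lysosomes, was at 1160 against 653 (0.87 ± 0.20, adjusted p = 0.03). Both calls were marginal. Each held in 15 of 21 fits with a library left out, but 9 of the 21 left out an MDM library, outside this comparison. Every such fit that lost a call had left out a microglia library. Neither call held without the 3 microglia libraries rich in transcripts of other immune cells (Cp 2.98, adjusted p = 0.066, and Ncoa4 1.00, adjusted p = 0.08). Trf was lower in transplanted type 1 MDM (-2.71 ± 0.38, adjusted p = 0.00019) and higher in type 2 than in type 1 transplanted MDM (1.77 ± 0.38, adjusted p = 0.01), a call lost without type 2 transplanted MDM 3 (1.79, adjusted p = 0.14). It was also called in the interaction of cell type with model (-2.01 ± 0.41, adjusted p = 0.015).

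Heme synthesis, 9 genes tested, had 4 lower and none higher in MDM than in microglia: Cpox (-0.69 ± 0.14, adjusted p = 6e-04), Alas1, the first and rate-limiting enzyme (-0.62 ± 0.20, adjusted p = 0.018), Fech, which inserts the iron (-0.45 ± 0.15, adjusted p = 0.023), and Uros (-0.47 ± 0.18, adjusted p = 0.041). That share is close to the background. Without the T and NK cell rich libraries, and so without type 1 transplanted tumours, Alas1 was at 0.04, Fech at -0.23 and Uros at -0.38. None of them was called there. Uros was called in 8 of 21 fits with a library left out, and Cpox was not called without the type 2 spontaneous MDM library (-0.28, adjusted p = 0.14). In type 1 MDM, Alas1 was lower in transplanted tumours (-2.13 ± 0.37, adjusted p = 0.00091) and Alad, the next enzyme of the path, higher (1.70 ± 0.44, adjusted p = 0.014), the latter not called without type 1 spontaneous MDM 2 (1.19, adjusted p = 0.26). No gene of heme synthesis was called between models or tumour types in microglia.

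Heme uptake, transport and breakdown, 14 genes tested, had 3 higher and 6 lower in MDM. Slc46a1, a folate and heme carrier, was lower (-3.54 ± 0.24, adjusted p = 8e-09), as were the exporter Abcg2 (-1.77 ± 0.14, adjusted p = 2.7e-08) and Pgrmc2, a heme chaperone (-1.10 ± 0.14, adjusted p = 5.3e-06). Hp, haptoglobin, which binds free haemoglobin, was higher (7.43 ± 1.09, adjusted p = 2.2e-05), as was Cd163, its receptor (4.31 ± 0.83, adjusted p = 0.00036). The mean normalised count of Hp was 5909 in MDM against 274 in microglia, and its fitted value ran from 5.93 to 8.05 over the alternatives. Cd163 was at 23.6 to 184 normalised counts in MDM and at 0 in 6 of 12 microglia libraries, and its fitted fold against those zeros depends on the pseudocount. It also marks border-associated macrophages, of whose 9 markers 5 were higher and 2 lower in MDM, with sums of 1325 to 21964 against 3484 to 15199; their part in this result was not tested.

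Heme and oxidant-responsive regulators, 19 genes tested, had 4 higher and 4 lower in MDM, a share called that is close to the background. Mafg, a small partner of NRF2 and BACH1, was lower (-1.26 ± 0.17, adjusted p = 1.1e-05) and so was Gclc of glutathione synthesis (-1.63 ± 0.24, adjusted p = 2.5e-05). Gsr, glutathione reductase, was higher (2.08 ± 0.29, adjusted p = 1.3e-05), and so was Spic, the heme-induced factor of iron-recycling macrophages (4.26 ± 0.63, adjusted p = 2.5e-05), at mean normalised counts of 153 against 10.6. Bach1, the heme-sensing repressor of Hmox1, was lower in transplanted than in spontaneous type 1 MDM (-1.86 ± 0.36, adjusted p = 0.002) and higher in type 2 than in type 1 transplanted MDM (1.63 ± 0.36, adjusted p = 0.013). Nfe2l2, which encodes NRF2, was lower in the first comparison (-1.56 ± 0.34, adjusted p = 0.0046) and higher in the second (1.24 ± 0.33, adjusted p = 0.036). Without type 2 transplanted MDM 3 neither gene was called in the second (Bach1 1.39, adjusted p = 0.24, and Nfe2l2 0.54, adjusted p = 0.71), and without type 1 spontaneous MDM 2 neither was called in the first (Bach1 -1.29, adjusted p = 0.086, and Nfe2l2 -1.18, adjusted p = 0.11). Nfe2l2 in the second held in 17 of 21 fits with a library left out, most of which left both compared groups whole. It was also lost without type 1 transplanted MDM 1, 2 or 3 (adjusted p = 0.055, 0.097 and 0.086). In the second comparison 7 of 10 microglia markers and 5 of 9 markers of border-associated macrophages were higher too, and their part in the calls of Bach1, Nfe2l2 and Trf was not tested. These 2 comparisons share the 4 type 1 transplanted MDM libraries.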

How the data were processed

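The authors' deposited table holds values on a log2 scale with a floor of 4.22, for 21 of 25 labelled samples. The authors used STAR 2.7.8a, mm10 and DESeq2, per the submitters' processing notes, and the values deposited have the form of variance-stabilised counts from DESeq2. The transformation was inverted, and 100% of values came back as whole reads (within 1e-06) with 1 size factor per library. Tests used limma-trend (limma 3.58.1, R 4.3.3) on log2(normalised count + 1) with 8 group means, on genes reaching 10 normalised counts in 3 or more libraries, with Benjamini-Hochberg adjustment over 17216 genes (called at adjusted p under 0.05). SE is that of the fit, SD that of libraries. Library numbers are those of the sample descriptions. The method was tested on simulated data. Alternatives were other pseudocounts, filters, scalings and weights, voom, a replicate block and left-out libraries; leaving out libraries rich in other cells was chosen after seeing the data. The 9 genes and all lists were chosen with earlier results of these data known. Named genes are the 9, up to 4 called per list by smallest p, fixed defining markers, and the 3 genes most alike in r with a mean of at least 50; Emp1, Fam234b and Ftl1-ps2 are named by position or sequence after their values were seen. Positions and lengths come from GENCODE M21.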

Additional observations from a re-analysis of the deposited data

Results flagged for a closer look

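One value lay far from the rest of its group. Blvrb stood at 1269 normalised counts in type 1 transplanted MDM 1, where the other 3 libraries of that group held 829.5 to 898.7. Only that group, with 4 libraries, was large enough for this comparison, so 9 values were examined, and chance alone gives about 1 such value in 20. None of 27 interaction tests of the 9 genes passed the threshold in limma, and 6 had an unadjusted p under 0.05. Of the 17216 genes tested, 2981 had one for cell type by model, 2231 for cell type by tumour type and 1088 for type by model.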

How the results depend on the processing

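Counts of the 9 genes called changed in 5 of 8 comparisons, in 4 of them by over 1.5 times. For model in microglia 1 gene was called, and 2 with array weights (leaving out a library gave 1 to 2). For tumour type in transplanted MDM 0 were called, 1 with voom and 0 to 6 with a library left out. For model in type 1 MDM 3 were called, 1 under quantile normalization, array weights or only the compared groups, and 1 to 3 with a library left out. For cell type by model 0 were called, 1 with array weights and 0 to 2 with a library left out. MDM against microglia gave 4, and 3 to 5 over all alternatives; the 3 remaining comparisons gave 0 throughout. Reversed against a called value were Fth1 (0.16) and Ftl1 (0.044) in type 1 transplanted tumours under quantile normalization, and Alas1 (0.043) in MDM against microglia without the T and NK cell rich libraries; the cause was not tested. Of 4486 recomputed gene values 153 lost and 37 gained a call, and 71 changed sign without a call in either fit.

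Same-numbered MDM and microglia of a class had correlated deviations (r 0.035 to 0.241), not all over 0.1, so the numbers were not taken as pairs. The 7 MDM libraries that could be compared with a same-numbered partner each correlated best with it. Type 2 spontaneous MDM 3 has a partner too, but as the only library of its group it has no deviation. In groups of 2 MDM libraries the deviations mirror each other, so their results were not independent. With the replicate block MDM against microglia called 5 genes, adding Hmox1 (-1.42, adjusted p = 0.0064), model in type 1 MDM 2, model in microglia 1 and the others 0. The block also ended the calls of Trf in cell type by model (-2.004, adjusted p = 0.21), Ncoa4 in model in microglia (0.79, adjusted p = 0.053), and Alas1 (-0.57, adjusted p = 0.075) and Uros (-0.22, adjusted p = 0.32) in MDM against microglia.

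Over all genes, rescaling to the same total moved the median by 0.22 (MDM against microglia), 0.13 (model in microglia), -0.27 (type in transplanted MDM) and 0.51 (model in type 1 MDM). The calls higher and lower went from 3952 and 3404 to 5226 and 2533, from 173 and 144 to 171 and 93, from 509 and 509 to 322 and 768, and from 996 and 1370 to 2358 and 764; cell type by model went from 168 and 217 to 175 and 87. Beyond 1.5 times the counts over all genes also moved with other settings: MDM against microglia from 7356 to 4133 without the T and NK cell rich libraries, type in microglia from 81 to between 5 and 303, model in microglia from 317 to between 111 and 2310, type by model from 2 to between 0 and 182, type in transplanted MDM from 1018 to between 79 and 2024, model in type 1 MDM from 2366 to 948, cell type by tumour type from 15 to between 0 and 215, and cell type by model from 385 to between 0 and 924. Groups of 1 to 4 libraries limit every MDM comparison, and Hebp1 at 24.0 to 43.7 counts is near the low end.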
